A study of Mus musculus with 30 samples.

Results

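*Slc38a2* and 9 other genes of amino acid transport and of the ATF4 response were examined in the left ventricle of mice given amyloid-β42 or an antibody against it. The list holds 10 genes: the transporters *Slc38a2*, *Slc7a5*, *Slc3a2* and *Slc7a1*, the transcription factor *Atf4*, and *Asns*, *Trib3*, *Chac1*, *Ddit3* and *Sesn2*, which are known targets of the ATF4 pathway. The list was chosen by measured values, the levels and treatment differences of these genes in these same hearts, that of *Slc38a2* first. Their treatment differences are therefore given as a description, with standard errors but without p-values. All 10 passed the filter on low counts, among 11985 genes tested with the peptides and 12146 with the antibodies.

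Hearts came from 30 male wild-type C57BL6J mice in 2 studies. In the peptide study, 7 mice were injected intraperitoneally each day with Aβ42 (Ab42 in the labels), a recombinant human peptide, and 7 with ScrAβ42 (ScrAb42), a control peptide whose sequence is scrambled, starting at 12 weeks of age. The labels put the daily dose at 1 mg and the study's methods put it in micrograms. In the antibody study, 8 mice were given 3D6, an antibody that neutralises Aβ42, and 8 were given a control antibody of the IgG2a isotype. The study's methods describe weekly injections during a high-fat diet shared by both antibody groups, while the series' design text describes Aβ42 administration in these mice too, and the labels of the samples do not settle this. Mice of the peptide study were killed straight after a glucose tolerance test with tracers, by the labels' protocol. The mouse numbers in the labels run from ScrAbeta42_3441 to ScrAbeta42_3449 and from Abeta42_3451 to Abeta42_3460, so that group and number cannot be told apart there. Total-RNA libraries of the peptide study held 4478991 to 6015767 counts per heart, and those of the antibody study 6397192 to 8310478. Levels are CPM, counts scaled to a common library size with edgeR's TMM factors. The tables of the 2 studies were made and scaled separately, so levels are not compared between them.

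SLC38A2 (SNAT2) is a sodium-coupled transporter that takes small neutral amino acids such as glutamine and alanine into cells. SLC3A2 (4F2hc) is the heavy chain that carries light chains such as SLC7A5 (LAT1), an exchanger of large neutral amino acids, to the plasma membrane, and SLC7A1 (CAT1) imports cationic amino acids. When amino acids run short or unfolded protein accumulates, kinases phosphorylate the initiation factor eIF2, general translation falls, and ATF4 is translated more efficiently. ATF4 then activates genes of amino acid uptake and synthesis, many of them through an element of the form TGATGNAA in their regulatory sequence. Much of the control of ATF4 is translational, so that the level of *Atf4* mRNA is only part of its activity.

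The sequence before the start site of 4 of these genes is shown because *Slc38a2* is the gene the comparison turns on and because *Asns*, *Trib3* and *Chac1* are reference targets of ATF4. Each window is the 250 bases before the RefSeq start on GRCm38.p6, written 5′ to 3′ on the strand of the gene. Capitals mark matches to TGATGNAA, or to its reverse complement, searched on both strands.
*Slc38a2* (chr15:96699729-96699978, minus strand): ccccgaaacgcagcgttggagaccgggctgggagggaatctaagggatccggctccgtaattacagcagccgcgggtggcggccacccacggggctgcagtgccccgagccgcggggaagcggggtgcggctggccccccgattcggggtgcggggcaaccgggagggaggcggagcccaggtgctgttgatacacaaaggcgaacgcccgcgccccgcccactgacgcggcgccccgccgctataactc
*Asns* (chr6:7693210-7693459, minus strand): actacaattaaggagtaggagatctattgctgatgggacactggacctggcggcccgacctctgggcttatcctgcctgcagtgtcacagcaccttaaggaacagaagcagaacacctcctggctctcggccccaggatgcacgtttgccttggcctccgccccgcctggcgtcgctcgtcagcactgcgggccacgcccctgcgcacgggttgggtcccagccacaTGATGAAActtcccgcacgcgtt
*Trib3* (chr2:152344061-152344310, minus strand): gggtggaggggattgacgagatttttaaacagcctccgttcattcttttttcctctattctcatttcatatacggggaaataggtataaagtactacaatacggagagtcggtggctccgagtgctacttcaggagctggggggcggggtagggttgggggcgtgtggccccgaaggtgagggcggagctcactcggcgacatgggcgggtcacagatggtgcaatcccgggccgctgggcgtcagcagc
*Chac1* (chr2:119350992-119351241, plus strand): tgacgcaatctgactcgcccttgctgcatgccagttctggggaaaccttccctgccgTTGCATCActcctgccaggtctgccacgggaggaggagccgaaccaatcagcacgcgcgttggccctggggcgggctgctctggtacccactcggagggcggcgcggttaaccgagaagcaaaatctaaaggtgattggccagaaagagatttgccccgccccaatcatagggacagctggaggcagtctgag
Of the 9 genes with a window in the table, 2 held a match, *Asns* and *Chac1*. In *Asns* the match is on the strand of the gene and begins at position -23 counted from the start. In *Chac1* it is on the opposite strand, at position -193. GENCODE puts the starts of *Asns*, *Chac1*, *Slc38a2*, *Ddit3* and *Sesn2* inside their windows. Counted from the GENCODE start, the match of *Asns* lies after the start, within the gene, and that of *Chac1* still before it. Among all 32851 windows of this length, 1134 (3.45%) held a match. The windows of *Slc38a2*, *Trib3*, *Slc3a2*, *Slc7a1*, *Atf4*, *Ddit3* and *Sesn2* did not contain these letters. No window of *Slc7a5* was examined.

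*Slc38a2* lies on the minus strand of chromosome 15 of GRCm38, from 96687392 to 96699730. In the ScrAβ42 group its level was lowest at 301 CPM, had a median of 344 CPM and was highest at 432 CPM. In the Aβ42 group the lowest level was 206 CPM, the median 258 CPM and the highest 288 CPM. Every one of the 7 Aβ42 hearts lay below every one of the 7 ScrAβ42 hearts, so the groups did not overlap. The means were 258 ± 28.9 CPM (SD, n = 7) with Aβ42 and 360.2 ± 52.1 CPM (SD, n = 7) with ScrAβ42. The log2 fold change was -0.48 (standard error 0.10), a mean level 28.4% lower with Aβ42. Of all 11985 genes tested, 4 (0.0334%) were lower in Aβ42 without overlap between the groups: *Zfp651*, *Slc38a2*, *Plec* and *Jun*. The other 3 were named because so few met this description. A further 7 genes were higher in Aβ42 without overlap.

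In edgeR's quasi-likelihood test, 431 genes (3.6%) were higher and 349 (2.91%) lower with Aβ42 at an unadjusted p under 0.05. Of the 10 genes of the list, 0 were among the higher and 1, *Slc38a2*, among the lower. No gene of the 11985 (0%) had an adjusted p under 0.05 in edgeR or in limma-voom. In DESeq2, 12 genes (0.1%) did. *Slc38a2* was 1 of them, a call that tests nothing because the gene was chosen by this same difference. Since these differences were in view when the list was made, nothing is read from these counts or calls. Leaving out a single heart, *Slc7a5* joined the higher genes without ScrAbeta42_3448, where 795 of 11933 genes were higher. *Ddit3* joined them without ScrAbeta42_3449, where 388 of 12001 were. Nothing is read from these calls either.

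Among the antibody hearts the level of *Slc38a2* was 65.7 CPM at the lowest, 77.3 CPM at the median and 157 CPM at the highest with the control antibody. With 3D6 it was 72.9 CPM at the lowest, 84.6 CPM at the median and 152 CPM at the highest. The groups overlapped over nearly their whole range. The log2 fold change was 0.01 (standard error 0.19), and the mean was 95.9 ± 27.7 CPM (SD, n = 8) in 3D6 hearts against 95.1 ± 32.4 CPM (SD, n = 8) in controls. Here 157 genes (1.29%) were higher and 287 (2.36%) lower with 3D6 at an unadjusted p under 0.05 in edgeR, and 0 of the 10 genes were in either set. Scaled to the total count instead of TMM, the split of all genes was 86 higher and 440 lower, and 1 of the 10, *Slc3a2* (log2 fold change -0.17), was among the lower. No gene (0%) had an adjusted p under 0.05 in edgeR, DESeq2 or limma-voom.

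**Figure D1:**
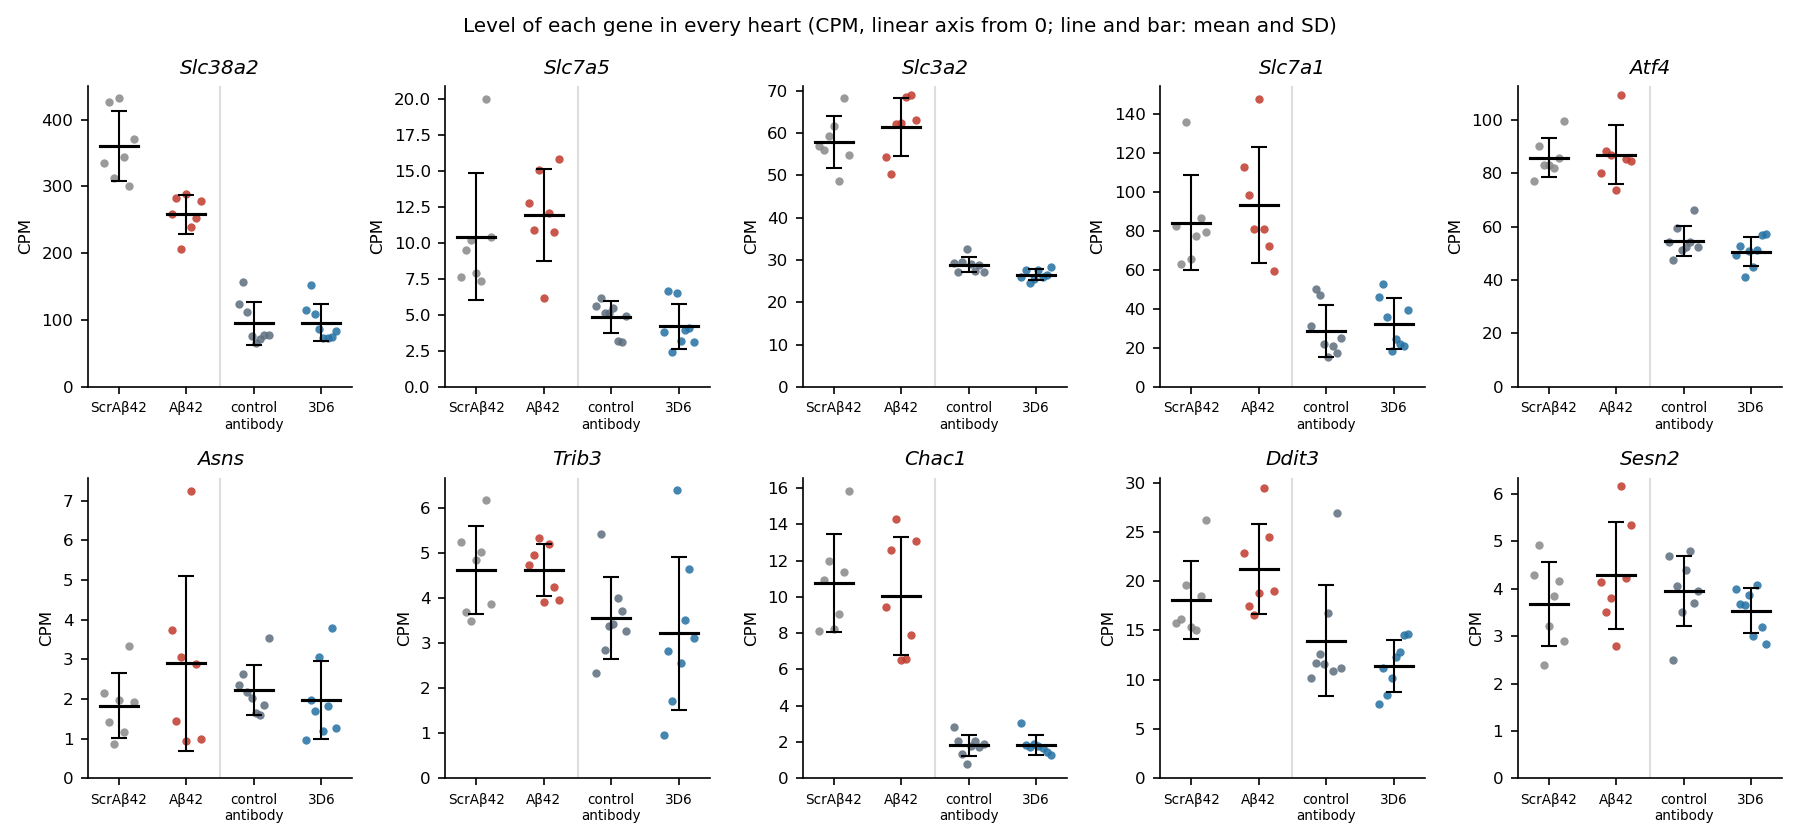
Level of each of the 10 genes in CPM (linear axes from 0) in every heart of the ScrAβ42, Aβ42, control antibody and 3D6 groups, with the group mean as a thick line and the SD as a bar. *Slc38a2* is the gene whose Aβ42 hearts (206 to 288 CPM) all lie under the ScrAβ42 hearts (301 to 432 CPM), and the 3D6 and control antibody hearts overlap for every gene.

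The other transporters did not separate the groups in either study. *Slc3a2*, the heavy chain, ranged from 48.8 to 68.4 CPM (median 56.9) in ScrAβ42 hearts and from 50.3 to 68.95 CPM (median 62.5) in Aβ42 hearts, with a log2 fold change of 0.08 (standard error 0.08). Leaving out 1 heart, that value ran from 0.05 without ScrAbeta42_3447 to 0.13 without ScrAbeta42_3448. After antibody treatment *Slc3a2* ranged from 27.1 to 32.6 CPM (median 28.9) with the control antibody and from 24.5 to 28.4 CPM (median 26.2) with 3D6. All 8 hearts given 3D6 lay below the control median and 5 of them below every control heart, with a log2 fold change of -0.13 (standard error 0.07). Its coefficient of variation there, 4.87% with 3D6 and 6.29% with the control antibody, was the smallest of the 10 genes.

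*Slc7a5*, the LAT1 light chain, was at 7.33 to 20.0 CPM (median 9.52) in ScrAβ42 hearts and at 6.16 to 15.8 CPM (median 12.1) in Aβ42 hearts. Its log2 fold change was 0.18 (standard error 0.23), and without ScrAbeta42_3448, the heart with the highest level, it was 0.43. Without each of the other hearts in turn its lowest value was 0.11 (without Abeta42_3460). With the antibodies *Slc7a5* was at 3.14 to 6.15 CPM (median 5.14) with the control antibody and at 2.44 to 6.65 CPM (median 3.89) with 3D6, a log2 fold change of -0.20 (standard error 0.21). *Slc7a1*, the cationic amino acid transporter, was at 63.3 to 136 CPM (median 79.7) in ScrAβ42 hearts and at 59.5 to 148 CPM (median 81.3) in Aβ42 hearts. The log2 fold change of *Slc7a1* was 0.15 (standard error 0.20), and leaving out 1 heart it ran from -0.0019 without Abeta42_3456 to 0.30 without ScrAbeta42_3443, the highest of each group. With the control antibody *Slc7a1* was at 15.4 to 50.2 CPM (median 23.7) and with 3D6 at 18.5 to 52.9 CPM (median 30.3), a log2 fold change of 0.18 (standard error 0.27). For both light chain and cationic transporter, the standard error was as large as the difference or larger.

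*Atf4* itself varied little, with a coefficient of variation of 8.52% to 12.7% in the 4 groups. Its level was 76.9 to 99.6 CPM (median 83.1) in ScrAβ42 hearts and 73.7 to 109 CPM (median 85.1) in Aβ42 hearts, a log2 fold change of 0.02 (standard error 0.08). Leaving out 1 heart, that value ran from -0.05 without Abeta42_3457, where the sign turned, to 0.06 without ScrAbeta42_3449. With the antibodies *Atf4* was at 47.6 to 66.2 CPM (median 53.2) with the control antibody and at 41.3 to 57.3 CPM (median 51.2) with 3D6, a log2 fold change of -0.11 (standard error 0.08). The groups overlapped in both studies.

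Among the ATF4 targets, *Asns*, the asparagine synthetase, had the widest spread in the peptide study. It was at 0.871 to 3.34 CPM (median 1.93) in ScrAβ42 hearts and at 0.933 to 7.26 CPM (median 2.89) in Aβ42 hearts, from 4 to 53 counts per heart. Its log2 fold change of 0.68 (standard error 0.43) was the highest of the 10 and was 0.23 without Abeta42_3457, the heart at 7.26 CPM, and 0.91 without ScrAbeta42_3448. *Ddit3*, which encodes the transcription factor CHOP, was at 15.1 to 26.3 CPM (median 16.2) in ScrAβ42 hearts and at 16.6 to 29.4 CPM (median 18.99) in Aβ42 hearts. All 7 Aβ42 hearts lay above the ScrAβ42 median of *Ddit3*, although the groups overlapped, and the log2 fold change was 0.23 (standard error 0.15). *Sesn2*, which encodes sestrin 2, a leucine-binding inhibitor of mTORC1 signalling, was at 2.40 to 4.93 CPM with ScrAβ42 and at 2.80 to 6.16 CPM with Aβ42, a log2 fold change of 0.22 (standard error 0.20). Without Abeta42_3457, the highest heart in both genes, the values were 0.13 for *Ddit3* and 0.10 for *Sesn2*, and the highest on leaving out a heart were 0.35 for *Ddit3* (without ScrAbeta42_3449) and 0.31 for *Sesn2* (without ScrAbeta42_3442).

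*Trib3*, a pseudokinase gene induced by ATF4 and CHOP, had the same mean in both peptide groups, 4.62 CPM, with a range of 3.48 to 6.18 CPM in ScrAβ42 hearts and 3.92 to 5.33 CPM in Aβ42 hearts. *Chac1*, which encodes a glutathione-degrading cyclotransferase, was at 8.10 to 15.8 CPM with ScrAβ42 and at 6.53 to 14.3 CPM with Aβ42, a log2 fold change of -0.11 (standard error 0.21). In *Chac1*, 3 of the 7 Aβ42 hearts lay below every ScrAβ42 heart and the others were spread through its range. Leaving out 1 heart, its value ran from -0.22 without Abeta42_3455 to 0.01 without ScrAbeta42_3449, where the sign turned.

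With 3D6, *Asns*, *Trib3*, *Ddit3* and *Sesn2* had log2 fold changes of -0.17 (standard error 0.27), -0.13 (0.28), -0.29 (0.19) and -0.15 (0.15), and *Chac1* one of 0.02 (0.23). *Ddit3* was at 10.2 to 27.0 CPM (median 11.7) with the control antibody and at 7.52 to 14.6 CPM (median 11.8) with 3D6. The medians of *Ddit3* were thus nearly equal, and without control mouse 22, the heart at 27.0 CPM, the log2 fold change was -0.08. Levels were low for *Chac1* (0.809 to 3.04 CPM, 6 to 19 counts per heart) and *Asns* (0.960 to 3.78 CPM, 6 to 26 counts). *Trib3* ranged from 0.960 to 6.40 CPM with 3D6 and from 2.34 to 5.42 CPM with the control antibody. The *Trib3* spread was wider with 3D6 (SD 1.70 against 0.910 CPM), with no test of that difference. In the hearts of mice numbered 3 to 12 alone its difference of mean log2 CPM was -0.87 (standard error 0.51), and in the other hearts 0.11.

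Over the list, 8 of the 10 genes had a log2 fold change above 0 with Aβ42, as had 6056 of all 11985 genes tested. The median was 0.11 over the list and 0.00 over all genes. With RLE in place of TMM 7 of 10 were above 0, and with the atrial score in the fit 3 of 10. With 3D6, 7 of the 10 were below 0, as were 6412 of all 12146 genes, with a median of -0.13 against -0.01 over all genes. Scaled to the total count 9 of 10 were below 0, where the median of all genes was -0.06. With the mitochondrial share in the fit 10 of 10 were. Nothing particular to the list is read from these counts.

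**Figure D2:**
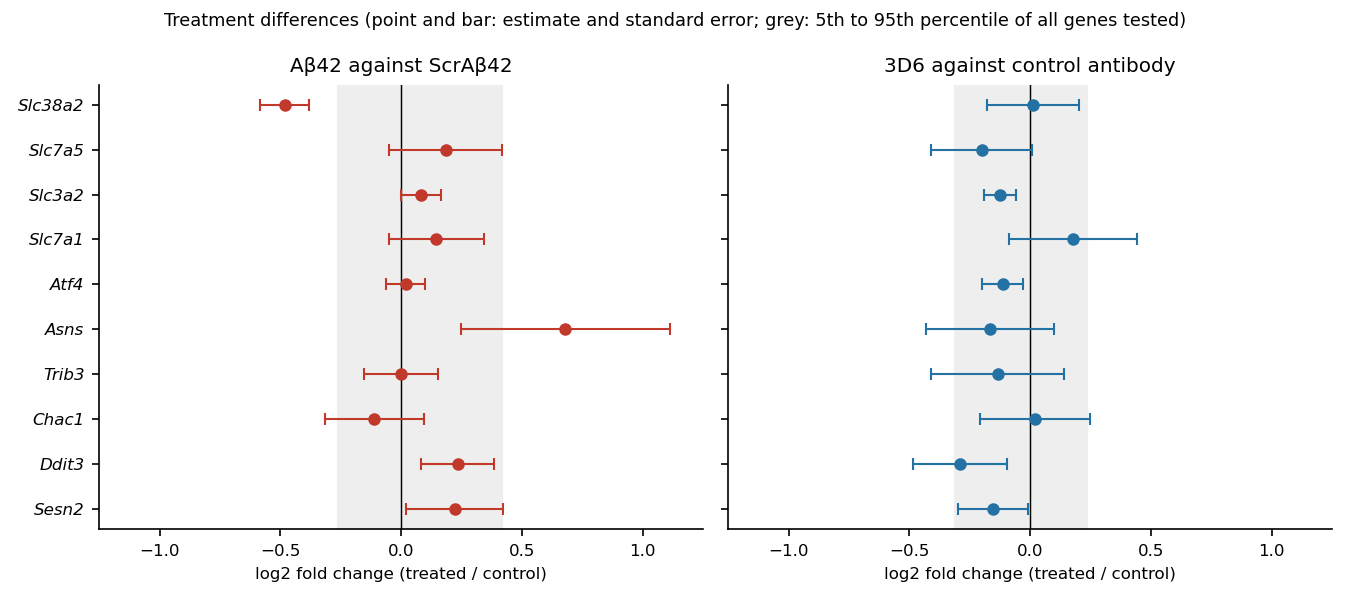
Log2 fold change of each gene with its standard error, for Aβ42 against ScrAβ42 and for 3D6 against the control antibody. The grey band runs from the 5th to the 95th percentile of all genes tested (-0.26 to 0.42 with Aβ42, -0.31 to 0.24 with 3D6), and *Slc38a2* (-0.48) and *Asns* (0.68) are the 2 values outside it, both with Aβ42.

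The left ventricular hearts were checked against markers. The summed level of 8 ventricular cardiomyocyte markers was 42400 to 89950 CPM in the peptide study and 47790 to 60060 CPM in the antibody study. The summed level of 5 atrial markers (*Sln*, *Myl7*, *Myl4*, *Bmp10* and *Mybphl*) differed between hearts by orders of magnitude, from 12.3 to 8387 CPM (median 1154) with Aβ42 and from 3.81 to 3652 CPM (median 10.5) with ScrAβ42, and none of the 5 was at 0 throughout a group. With 3D6 it was 1.05 to 668.5 CPM (median 98.6) and with the control antibody 0.823 to 2777 CPM (median 2.89). In bulk tissue, fewer cells of a type and less RNA per cell cannot be told apart.

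The relation of *Slc38a2* to the atrial sum was examined between hearts of the same group. On deviations from the group means over 14 hearts, Pearson's r was -0.60 (two-sided permutation p = 0.0244) and Spearman's rho -0.54 (permutation p = 0.0679). This was 1 of 11 relations of *Slc38a2* with markers, depth and mitochondrial share that were computed, and the adjusted permutation p was 0.194. It was the same for 3 other marker sums, with an r of -0.55 (rho -0.59) for fibroblast, -0.53 (rho -0.64) for macrophage and 0.52 (rho 0.59) for ventricular cardiomyocyte markers. Without the 2 hearts farthest from the median of each sum these were -0.42, 0.05 and 0.45, so that the macrophage relation rests on Abeta42_3455 and ScrAbeta42_3448. Without Abeta42_3457 and ScrAbeta42_3448, the hearts farthest from the median of the atrial sum, r was -0.46. In a fit that held the atrial score, *Slc38a2* had a log2 fold change of -0.35 (standard error 0.10), against -0.48 without it. The Aβ42 hearts with the least atrial signal, Abeta42_3452 and Abeta42_3456 (12.8 and 12.3 CPM of atrial markers), held 283 and 288 CPM of *Slc38a2*, the highest of their group. The ScrAβ42 heart with the most atrial signal, ScrAbeta42_3448 (3652 CPM), held 301 CPM, the lowest of its group. The groups differed in atrial signal, with a median of 1154 CPM with Aβ42 and 10.5 CPM with ScrAβ42. Its part in the *Slc38a2* difference was not tested.

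**Figure D3:**
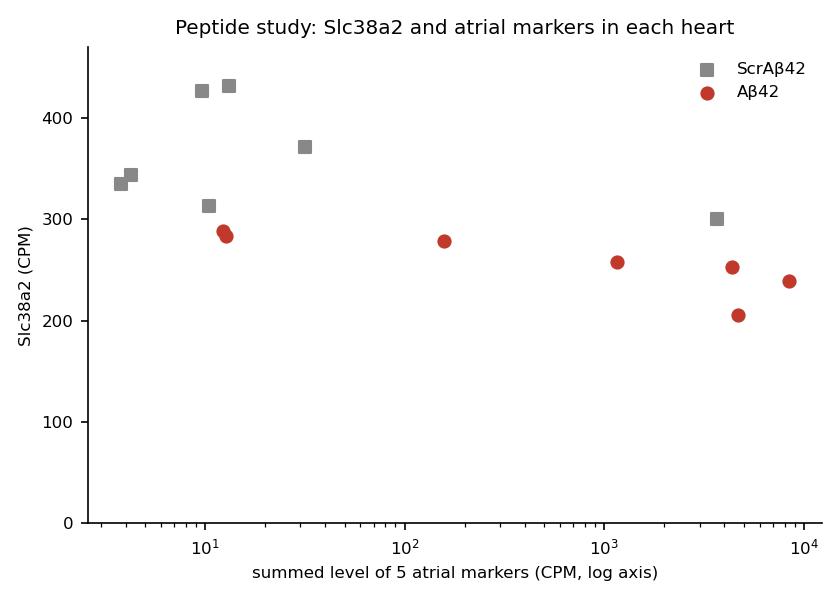
*Slc38a2* in CPM (linear axis) against the summed level of 5 atrial markers in CPM (log axis) in each of the 14 hearts of the peptide study. The Aβ42 hearts with the least atrial signal (12.3 and 12.8 CPM) hold 288.0 and 283 CPM of *Slc38a2*, the highest of their group. All Aβ42 hearts lie under every ScrAβ42 heart (301 CPM and above), and the gene was chosen by this difference.

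For *Asns*, *Slc7a5* and *Slc3a2* the r with the atrial sum was above 0. Over the same 14 hearts r was 0.79 for *Asns* (permutation p = 0.00218, adjusted over all 11985 genes 0.0430; rho 0.59, permutation p = 0.0402), 0.74 for *Slc7a5* (permutation p = 0.0127, adjusted 0.0824) and 0.65 for *Slc3a2* (permutation p = 0.0215, adjusted 0.105). Without the 2 farthest hearts r was 0.72 for *Asns*, 0.59 for *Slc7a5* and 0.42 for *Slc3a2*. With *Slc38a2*, 4 of the 10 genes had an unadjusted permutation p under 0.05 against the atrial sum, and so had 30.4% of all genes tested. With that score in the fit, the log2 fold change of *Asns* turned from 0.68 to -0.17, that of *Slc7a5* from 0.18 to -0.19 and that of *Slc3a2* from 0.08 to -0.03, and 3 of the 10 genes instead of 8 were above 0. The part of atrial tissue in these differences cannot be told apart from the treatment where it moves with the groups.

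Antibody hearts fell into separate levels of *Slc38a2* by mouse number and not by treatment. The 6 hearts of mice numbered 3 to 12, 3 of each group, held 110 to 157 CPM of *Slc38a2*. The 10 hearts of mice numbered 15 to 24, 5 of each group, held 65.7 to 86.3 CPM. The ranges did not overlap. This boundary was chosen after the levels were seen, and the labels do not say what the numbers stand for, so no test of the difference is given. Over all 12146 genes, 507 (4.17%) were higher and 216 (1.78%) lower in every one of the low-numbered hearts than in every other heart, and *Slc38a2* was the only one of the 10 genes among them.

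*Slc7a1* followed a like pattern with some overlap, at 31.2 to 52.9 CPM in the 6 hearts against 15.4 to 39.4 CPM in the 10. *Ddit3* differed the other way with some overlap, at 7.52 to 12.6 CPM against 10.1 to 27.0 CPM. *Atf4* overlapped more widely, at 41.3 to 59.3 CPM against 44.8 to 66.2 CPM. The share of counts on mitochondrial genes was 32.95% to 37.9% in the 6 hearts and 26.0% to 33.8% in the 10. With that share in the fit, the 3D6 log2 fold change of *Slc38a2* was -0.16 (standard error 0.13), against 0.01 without it.

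**Figure D4:**
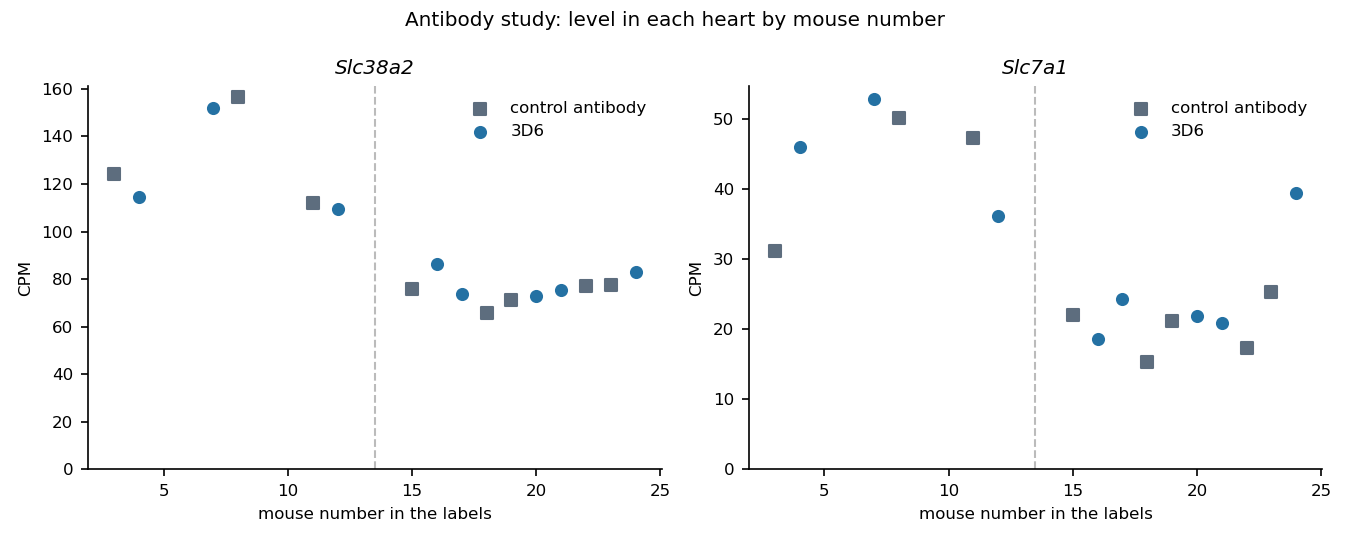
Level of *Slc38a2* and of *Slc7a1* in CPM (linear axes from 0) against the mouse number in the labels, for the 16 hearts of the antibody study, with squares for the control antibody and circles for 3D6. To the left of the dashed line the 6 hearts numbered 3 to 12 hold 110 to 157 CPM of *Slc38a2*, and to its right the 10 others hold 65.7 to 86.3 CPM, with both treatments on each side.

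The treatment groups were compared in *Slc38a2* within each number range. In the 6 low-numbered hearts 3D6 hearts were at 125 ± 23.2 CPM (SD, n = 3), against 131 ± 23.1 CPM (SD, n = 3) in controls. In the 10 others 3D6 hearts were at 78.2 ± 6.04 CPM (SD, n = 5), against 73.5 ± 5.03 CPM (SD, n = 5) in controls. Each of these differences was smaller than the SD between hearts. With the rank of the mouse number in the fit, *Slc38a2* had a log2 fold change of 0.04 (standard error 0.12).

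Whether *Slc38a2* varied between hearts together with the other 9 genes was examined on deviations from the group means, which hold nothing of the treatment difference. With the peptides r was below 0 for all 9, between -0.50 (*Slc7a5*) and -0.02 (*Sesn2*). The smallest permutation p was 0.0797, for *Slc7a5*, and 0.418 when adjusted over all 11984 other genes. No gene (0%) passed an adjusted p of 0.05 against *Slc38a2* there, while 1541 (12.9%) had an unadjusted permutation p under 0.05. Among antibody hearts with only group means removed, 3613 of 12145 genes (29.7%) passed it, and with the means of number range and group removed, 0 (0%) did.

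Within number ranges, the r of *Slc38a2* with *Slc7a1* was 0.40 over 16 hearts (permutation p = 0.154; rho 0.29, permutation p = 0.397). In the 6 low-numbered hearts alone it was 0.54 (exact permutation p = 0.278), and in the other 10 it was 0.35 (exact permutation p = 0.386). With *Trib3* the r of *Slc38a2* was 0.68 within ranges (permutation p = 0.0475, adjusted over all genes 0.982), but rho was 0.08 and r was 0.21 without 3D6 mouse 7 and control mouse 8, so the relation rests on those hearts. The same pair had an r of -0.46 among the peptide hearts. With *Slc7a5* the r within ranges was 0.51 (permutation p = 0.0916; rho 0.08), and 0.22 without those hearts. In the 6 low-numbered hearts it was 0.79 (exact permutation p = 0.0278). That is the smallest p the 36 arrangements allow, in a range set after the levels were seen, so nothing is read from it. In the other 10 hearts the r was 0.17, and among the peptide hearts -0.50. With *Sesn2* the r within ranges was -0.51 (permutation p = 0.113; rho -0.33), and -0.17 without 3D6 mouse 7 and control mouse 8.

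Of the 45 pairs among the 10 genes, 4 had an unadjusted permutation p under 0.05 with the peptides and 3 with the antibodies within number ranges, and 2 pairs did in both. These are 8.89% and 6.67% of the pairs. Over all genes, the share at such a p against each of the 10 averaged 11.9% with the peptides (3.12% to 30.3%) and 8.07% with the antibodies (3.58% to 24.7%), so the pairs were no more frequent than that. None of the pairs in the peptide study passed adjustment over all genes. *Asns* and *Trib3* had an r of 0.62 in the peptide study (permutation p = 0.0077, rho 0.77, permutation p for rho 0.00398) and 0.62 in the antibody study (permutation p = 0.0171), where rho was 0.13. Without the 2 hearts farthest from the median of *Asns*, r was 0.60 in the peptide study, and 0.50 without the 2 farthest in *Trib3*. *Atf4* and *Ddit3* had an r of 0.65 in the peptide study (permutation p = 0.0180; rho 0.36) and 0.61 in the antibody study (permutation p = 0.0241; rho 0.58). The former relation of *Atf4* with *Ddit3* rests on the 2 hearts farthest from the median of *Atf4*, without which r was -0.04. Among antibody hearts with only group means removed, the r of *Atf4* with *Ddit3* went from 0.65 to 0.31 without 3D6 mouse 12 and control mouse 22, and that of *Asns* with *Trib3* from 0.62 to 0.40 without 3D6 mice 4 and 21. Among the same peptide hearts *Slc7a1* and *Sesn2* had an r of -0.70 (permutation p = 0.00767; rho -0.61) and -0.37 without the 2 hearts farthest in either gene. *Slc7a5* and *Chac1* had an r of 0.59 (permutation p = 0.0279; rho 0.79) and, without the 2 hearts farthest in *Slc7a5*, 0.72, or 0.50 without the 2 farthest in *Chac1*.

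The 5 genes most like *Slc38a2*, ranked over the 11360 genes tested in both studies by the smaller of the Pearson r in the 2 studies (14 and 16 hearts, group means removed), were *Arih1*, a ubiquitin ligase, *Erap1*, an aminopeptidase of the endoplasmic reticulum, *Ddx3y*, an RNA helicase of the Y chromosome, *Enpp4*, an ectonucleotidase, and *Slc16a1*, a monocarboxylate transporter. None was another gene of the list. Their r with *Slc38a2* in the peptide study ran from 0.74 (*Slc16a1*) to 0.81 (*Arih1*). These r were part of the ranking, so that they are high by selection. Adjusted over all genes, the permutation p there was 0.281 (*Erap1*) to 0.314 (*Slc16a1*). Among antibody hearts with number ranges also centred the r was 0.42 for *Arih1*, 0.27 for *Ddx3y*, 0.17 for *Erap1*, 0.11 for *Slc16a1* and -0.02 for *Enpp4*. For 4 of the 5 it was thus under 0.3 within ranges.

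*Slc38a2* and *Slc7a1* have the longest exons of the list, 8838 and 11530 bases over all annotated transcripts against 1637 to 3708 bases for the other genes. The transcripts counted in the antibody study were shorter, with weighted means of 4762 bases for *Slc38a2* and 7148 for *Slc7a1*. Genes were put in 5 bins of exon length. The median r with *Slc38a2* among antibody hearts went from -0.49 in the bin of shortest genes to 0.43 in that of the longest. With number ranges centred the medians ran from -0.15 to 0.12. Among peptide hearts they lay between -0.05 and 0.06 in every bin. These are correlations across genes of the same hearts and libraries, and genes are not independent replicates.

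**Figure D5:**
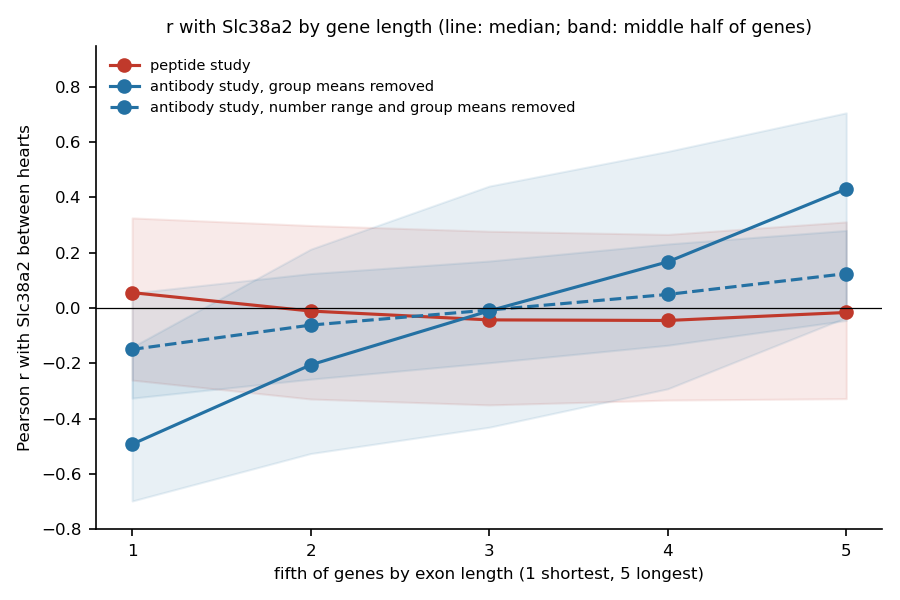
Median Pearson r with *Slc38a2* between hearts (line) and its interquartile range over genes (band) in 5 bins of genes from shortest to longest exon length, for the peptide study, the antibody study with group means removed, and the antibody study with number range and group means removed (dashed). The antibody line climbs from -0.49 to 0.43, its dashed version from -0.15 to 0.12, and the peptide line stays between -0.05 and 0.06.

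The order of levels was read per kilobase of transcript, from the mean transcript length weighted by the estimated counts of the antibody study. In ScrAβ42 hearts *Slc38a2* was highest, at 75.6 ± 10.9 CPM per kilobase (SD, n = 7), above *Atf4* at 49.5 ± 4.21 and *Slc3a2* at 30.4 ± 3.20, with no overlap between these neighbours. In Aβ42 hearts *Slc38a2*, at 54.2 ± 6.07 CPM per kilobase (SD, n = 7), overlapped with *Atf4* at 50.1 ± 6.35, and 5 of 7 hearts had more of *Slc38a2*. *Ddit3*, *Slc7a1*, *Chac1*, *Slc7a5* and *Trib3* came next in that order in both peptide groups. Each of these overlapped with the next in the order, except *Trib3* in ScrAβ42 hearts, which lay above *Sesn2* in all 7. *Asns* and *Sesn2* were last, between 0.941 and 1.49 CPM per kilobase on average, and changed places between the groups. Among antibody hearts *Atf4* was highest, at 29.2 ± 3.15 CPM per kilobase (SD, n = 8) in 3D6 hearts and 31.5 ± 3.29 (SD, n = 8) in controls, ahead of *Slc38a2* at 20.1 ± 5.82 and 19.96 ± 6.81, with overlap in both groups. That order held in all 10 hearts of mice numbered 15 to 24, with *Slc38a2* at 13.8 to 18.1 and *Atf4* at 25.8 to 38.2 CPM per kilobase, and in 4 of the 6 numbered 3 to 12, where the genes overlapped. *Slc7a5*, *Chac1*, *Asns* and *Sesn2* were all at means of 1.02 to 1.38 CPM per kilobase there, not apart beyond their spread.

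The antibody table lists transcripts. Of 39 transcripts of the 10 genes, 21 had any count. The protein-coding Slc38a2-201 took 93.2% ± 1.47 (SD, n = 8) of the *Slc38a2* estimated counts in 3D6 hearts, against 91.7% ± 4.08 (SD, n = 8) in controls, and a transcript with a retained intron, Slc38a2-202, took the rest, 3.40% to 15.5% per heart. *Chac1*, *Trib3* and *Sesn2* each had all their counts on a single transcript. *Ddit3* was split over 3, of which Ddit3-201 took 79.1% ± 11.1 (SD, n = 8) in 3D6 hearts, against 79.4% ± 6.23 (SD, n = 8) in controls. In *Slc3a2* the share of a coding transcript of 1393 bases went from 0% to 50.2% between control hearts, although the sum over *Slc3a2* transcripts varied little. Shares among overlapping transcripts are estimates of Salmon and carry its uncertainty.

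The wider pathway was described by 94 genes in 7 lists. With the peptides 85 were tested, and 3 were higher and 4 lower with Aβ42 at an unadjusted p under 0.05 (8.24%, against 6.51% of all genes), with no adjusted p under 0.05. With the antibodies 81 were tested, and 0 were higher and 2 lower with 3D6 (2.47%, against 3.66% of all genes).

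Among 23 other amino acid transporters tested with Aβ42, *Slc7a7*, a light chain of SLC3A2 for cationic and neutral amino acids, was at 0.871 to 10.4 CPM (median 2.51) with ScrAβ42 and at 1.86 to 30.3 CPM (median 6.89) with Aβ42. The log2 fold change of *Slc7a7* was 1.64 (standard error 0.63, with an unadjusted p = 0.0191, adjusted p = 0.703 in edgeR). Its relation to the atrial sum had an r of 0.86 over 14 hearts (permutation p = 0.00054, adjusted over all genes 0.0309; rho 0.50). *Slc7a8*, the LAT2 light chain, had a log2 fold change of 0.33 (standard error 0.15, unadjusted p = 0.0469, adjusted p = 0.758 in edgeR). *Slc38a4*, the SNAT4 relative of *Slc38a2*, was at 10.2 to 25.6 CPM with ScrAβ42 and at 8.45 to 18.9 CPM with Aβ42, a log2 fold change of -0.41 (standard error 0.18, unadjusted p = 0.0399, adjusted p = 0.742 in edgeR). The median over these transporters was 0.16 with Aβ42 and -0.02 with 3D6, where 0 of 20 had an unadjusted p under 0.05.

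Of the 18 cytosolic aminoacyl-tRNA synthetases, 13 were below 0 with Aβ42, with a median of -0.04 and a range of -0.28 to 0.03. Of all 11985 genes, 5929 were below 0. *Vars* was lower, at 46.1 ± 5.68 CPM (SD, n = 7) with Aβ42 and 56.1 ± 5.996 CPM (SD, n = 7) with ScrAβ42 (log2 fold change -0.28, standard error 0.09, unadjusted p = 0.00596, adjusted p = 0.642 in edgeR). *Iars* had a log2 fold change of -0.18 (standard error 0.08, unadjusted p = 0.0487, adjusted p = 0.761 in edgeR). With 3D6, 0 of 18 had an unadjusted p under 0.05, and 11 were above 0, as were 5734 of all 12146 genes. Of the 9 genes that control the phosphorylation of eIF2, *Gcn1l1*, a coactivator of the kinase GCN2, was at 61.1 to 85.9 CPM with Aβ42 and 73.8 to 97.2 CPM with ScrAβ42 (log2 fold change -0.23, standard error 0.08, unadjusted p = 0.0131, adjusted p = 0.693 in edgeR). All 7 Aβ42 hearts were below the ScrAβ42 median of *Gcn1l1*, and the r of *Gcn1l1* with the atrial sum was -0.73 ( permutation p = 0.00435, adjusted over all genes 0.0534). Without the 2 farthest hearts that r was -0.47.

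Among 11 enzymes of serine, glycine, proline and one-carbon metabolism tested, *Aldh1l2*, a mitochondrial formyltetrahydrofolate dehydrogenase, had a log2 fold change of 0.73 (standard error 0.34, unadjusted p = 0.0484, adjusted p = 0.761 in edgeR) with Aβ42. Its r with the atrial sum was 0.64 (permutation p = 0.0184, adjusted over all genes 0.0973; rho 0.46), and 0.44 without the 2 farthest hearts. Among 9 other transcription and secreted factors tested with Aβ42, log2 fold changes ran from -0.10 (*Cebpb*) to 0.33 (*Nupr1*) with 0 at an unadjusted p under 0.05. With 3D6, *Atf3*, a stress-induced transcription factor, was at 0.993 to 2.41 CPM against 1.51 to 5.57 CPM with the control antibody (log2 fold change -0.60, standard error 0.28, unadjusted p = 0.0432, adjusted p = 0.944 in edgeR). Of 12 genes of the endoplasmic reticulum unfolded protein response, *Creld2*, a chaperone, was at 7.54 ± 1.30 CPM (SD, n = 8) in 3D6 hearts and 9.37 ± 1.18 CPM (SD, n = 8) in controls, a log2 fold change of -0.31 (standard error 0.12, unadjusted p = 0.0143, adjusted p = 0.944 in edgeR). None of the 12 had an unadjusted p under 0.05 with Aβ42, where the range was -0.30 to 0.16. Of the osmotic response genes, 4 were tested in each study and 0 had an unadjusted p under 0.05.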

How the data were processed

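Left ventricular RNA of 30 mice was sequenced as stranded total-RNA libraries. The authors mapped trimmed reads with Salmon (version not given in the sources used here) to the GENCODE vM24 transcriptome of GRCm38. The deposited peptide table holds whole-number counts per gene and the deposited antibody table estimated counts per transcript, neither normalized. Transcripts were summed to genes through GENCODE vM21 and rounded, and the 0.38% of counts on transcripts not listed there were left out. The peptide table has 1 further count column, of no labelled mouse, which was left out.

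Each study was fitted on its own, over genes averaging 10 or more counts, with edgeR 4.0.16 in R 4.3.3 (TMM, quasi-likelihood test, two-sided, Benjamini-Hochberg adjustment over all genes). Log2 CPM used a prior count of 2. Tested on simulated data with true log2 fold changes of 1, it found 78.9% of 199 such genes (peptide design, 11903 genes, 14 false) and 89.3% of 196 (antibody design, 12066 genes, 13 false). No 2 hearts of a group agreed within sampling noise (chi-square per degree of freedom at least 3.47). Co-variation was tested with 100000 permutations of hearts within groups, two-sided, in Python 3.11.15 with NumPy 2.4.6, adjusted over all genes. Groups came from the labels, where each sample is a numbered mouse. The planned centring was on group means, and centring on number range as well was added after the levels were seen.

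Alternatives were DESeq2 1.42.0, limma-voom (limma 3.58.1), RLE, upper-quartile and total-count scaling, other filters on low counts, scores as covariates and leaving out each heart. The genes, the wider lists and the tests were chosen with earlier results of these data known. The rule for names was every gene of the list, at most 3 genes per wider list and comparison at an unadjusted p under 0.05, and the 5 genes most like *Slc38a2*. Promoter windows are from RefSeq (GRCm38.p6), and 9 of the 10 genes matched by symbol.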

Additional observations from a re-analysis of the deposited data

Results flagged for a closer look

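In 40 combinations of a gene of the list and a group, the highest or the lowest heart was compared with the nearest of the others. In 7 the gap was over 0.568 (groups of 7) or 0.526 (groups of 8) of the whole range, always at the highest heart. Chance gives about 1 in 20 groups where values are independent and normally distributed. These CPM are on a linear scale and the combinations share hearts, so the 7 are not set against that rate. In ScrAβ42 hearts these were *Slc7a5* in ScrAbeta42_3448 at 20.0 CPM, with the next at 10.4 CPM, *Slc7a1* in ScrAbeta42_3443 at 136 CPM, with the next at 86.6 CPM, and *Ddit3* in ScrAbeta42_3449 at 26.3 CPM, with the next at 19.6 CPM. In Aβ42 hearts it was *Atf4* in Abeta42_3457 at 109 CPM, with the next at 88.2 CPM. Among antibody hearts they were *Chac1* in 3D6 mouse 4 at 3.04 CPM, with the next at 1.87 CPM, *Slc3a2* in control mouse 15 at 32.6 CPM, with the next at 29.5 CPM, and *Ddit3* in control mouse 22 at 27.0 CPM, with the next at 16.7 CPM. ScrAbeta42_3448 and Abeta42_3457 also had the lowest mitochondrial shares of the peptide study (13.8% and 12.9%) and high atrial sums (3652 and 8387 CPM), and control mouse 22 had the lowest mitochondrial share of the antibody study (26.0%). With the atrial score in the fit the log2 fold change of *Slc7a5* was -0.19 and with the mitochondrial share 0.24, against 0.18 without them. *Slc38a2* had no such heart in any group.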

How the results depend on the processing

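The log2 fold change of *Slc38a2* kept its sign under all 24 alternatives in the peptide study, between -0.35 with the atrial score as a covariate and -0.52 without ScrAbeta42_3448. With 3D6 it kept its sign under 18 of 29, between -0.16 with the mitochondrial share as a covariate and 0.15 without control mouse 8, and was -0.11 without 3D6 mouse 7. All these values lay within 1 SD between hearts of the main value. Over the 10 genes, 1 of 239 alternative values in the peptide study (*Asns*, -0.17 with the atrial score) and 1 of 287 in the antibody study (*Trib3*, -0.87 in hearts numbered 3 to 12) moved by more. Under a minimum of 10 counts in every heart, *Asns* gave no value in either study, nor *Trib3* and *Chac1* in the antibody study.

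In the peptide study, 12 genes had an adjusted p under 0.05 with DESeq2, against 0 in edgeR. Leaving out each heart, the number ran from 0 to 3, with 3 without Abeta42_3452 and 1 without ScrAbeta42_3448. Genes at an unadjusted p under 0.05 numbered 780, and 1475 without a filter on low counts, 1253 with the mitochondrial share as a covariate and 608 to 1267 leaving out each heart, the latter without ScrAbeta42_3448. With the antibodies they numbered 444, and 1168 without a filter, 958 with the rank of the mouse number as a covariate and 256 to 766 leaving out each heart (256 without 3D6 mouse 4, 766 without control mouse 8).

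Against *Slc38a2* in the peptide study, 0 of 9 genes had an unadjusted permutation p under 0.05, where 12.9% of all genes had. The count was 1 with the immediate early score removed (*Atf4*), 1 with the atrial score removed (*Slc7a1*) and 1 in ScrAβ42 hearts alone (*Slc7a1*). Leaving out each heart it was 0 to 2 (*Slc7a5* without Abeta42_3460, and *Asns* and *Trib3* without ScrAbeta42_3443). In the antibody study with only group means removed, as planned, 1 of 9, *Slc7a1*, had such a p, where 42.5% of all genes had. The count was 2 without the 2 hearts farthest from the median of *Slc38a2* and 2 with the immediate early score removed. Leaving out each heart it was 1 to 2 (2 without 3D6 mouse 12). The share of all genes under these alternatives was not computed, so nothing is read from these counts. That pooled r of *Slc38a2* with *Slc7a1* was 0.86 over 16 hearts in separate levels, and 0.40 within number ranges, a centring added after the levels were seen.

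No paired analysis was possible because the groups compared share no mouse number. Depth limits *Asns* and *Chac1*, at 4 to 53 and 6 to 82 counts per heart. Detection of small differences or in low genes was not simulated, and p-values measure the spread between these mice only.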
